A study of Mus musculus with 2 samples.

Results

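Oligodendrocyte precursor cells (OPCs) in G2 and M phase were taken as the OPCs that carried a set level of mitosis mRNAs, and numbered 409 of the 13006 cell barcodes deposited. A barcode was an OPC when it had at least 500 genes, at least 2000 UMIs (unique molecular identifiers, each 1 captured mRNA molecule), at most 10% mitochondrial UMIs, at least 2 UMIs of Olig1 and Olig2 together, at least 3 UMIs of Pdgfra per 10000 and fewer than 10 UMIs of C1qa, C1qb and C1qc per 10000. Members were the OPCs with at least 8 UMIs per 10000 summed over Mki67, Top2a, Cenpf, Ube2c and Birc5. Members were chosen by these measured values, so levels of cycle genes in them are a description and not a finding. There were 231 members among 2519 OPCs in the library named WT-CNO and 178 among 2194 OPCs in the library named DREADD-CNO, and the other 2288 and 2016 OPCs are called below the cut.

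Both libraries were made at postnatal day 8 from C57BL/6J pups, whose cortex and corpus callosum were dissociated with papain and enriched with magnetic beads against PDGFRA and O4, so shares of cells describe the selected cells and not the tissue. Every pup had received at birth an adeno-associated virus with a neuronal (human synapsin) promoter and a Cre-dependent hM4D(Gi)-mCherry receptor, an inhibitory designer receptor, and was given clozapine-N-oxide (CNO), its ligand, by mouth 2 times a day from day 2 to day 8. WT-CNO was a pool of 2 wildtype pups, in which no Cre was present to switch the receptor on. DREADD-CNO was a pool of 3 pups with 1 Cre allele at Neurod6 (NexCre), a gene of cortical excitatory neurons, so the receptor was directed to neurons and not to OPCs. With 1 library per group no test between groups exists, and genotype, silencing, pups, sex and library cannot be told apart. Intervals in brackets are 95% intervals of counting error only, and cells of 1 library are not replicates.

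OPCs are the proliferating cells of the oligodendrocyte lineage and in the postnatal brain they divide while still bearing PDGFRA, the receptor for the mitogen PDGF. In G2 a cell holds replicated chromosomes and builds up the mRNAs for cyclin B, CDK1, the spindle and the kinetochores. In mitosis the anaphase promoting complex destroys cyclins and securin, the chromatids part and cytokinesis splits the cell.

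Members were deeper than the OPCs below the cut. The median was 15679 UMIs in WT-CNO members against 10936.5 below the cut, and 20051.5 against 16161.5 in DREADD-CNO. The OPCs of both libraries fell into a state rich in ribosomal protein mRNAs (at least 3% of UMIs) and a state poor in them. The rich state held 41.6% of WT-CNO members against 30.6% below the cut, and 66.9% against 55.5% in DREADD-CNO. The libraries also differed in sex: 196 WT-CNO members were called female and 15 male from Xist and Y-linked genes, against 45 female and 105 male in DREADD-CNO. Highest doublet scores marked 6 and 3 members (2.60% and 1.69%) and 4.46% and 4.76% of OPCs below the cut. The libraries shared 12 barcodes, of which 3 were OPC barcodes and 0 were members in both.

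The cut took a range of cells and not a separate type. In WT-CNO 14 members lay between 8 and 10 UMIs per 10000 and 30 OPCs between 6 and 8, and in DREADD-CNO 13 and 26. The lowest members had 8.04 and 8.02, and the highest OPCs below the cut had 7.95 and 7.97. Below the cut 66.7% and 69.2% of OPCs had no UMI of the 5 rule genes. Members had a median of 37 and 39 such UMIs, and 136 of 231 and 119 of 178 members had UMIs of all 5 genes. Mki67 was detected, after thinning each cell to 5000 UMIs and leaving shallower cells out, in 91.4% and 91% of members (220 and 166 cells) and in 3.74% and 3.5% of OPCs below the cut (2061 and 1886 cells). Unthinned, the Mki67 shares of these cells were 98.6% and 99.4% against 7.62% and 8.01%. Myelin-rich lineage cells, which have left the cycle and served as a measure of free RNA, had Mki67 in 0.806% and 0.621% after thinning, at median depths of 39737 and 38066 UMIs before it.

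The membership rule requires Pdgfra and Olig1 or Olig2 in members and in the OPCs below the cut alike, so their presence is fixed by it. Pdgfra stood at 1228 against 1419.8 CPM in WT-CNO and 1272 against 1233 CPM in DREADD-CNO, where CPM is UMIs per 1000000 UMIs summed over the cells of a group. Cspg4, the NG2 proteoglycan, which the rule did not use, was at 361 against 488 CPM in WT-CNO and 366 against 443 CPM in DREADD-CNO. Sox10, the lineage transcription factor, was at 246 against 259.6 CPM in WT-CNO and 268 against 255 CPM in DREADD-CNO. Of the 30 OPC identity genes, all measured, 0 were past the rule of size used here in either direction, and 20 were below 1 in both libraries, or 66.7% against 41% of all genes at 5 CPM or more. That rule asks for a ratio of at least 2 in both libraries, at least 20 CPM and 100 UMIs on the higher side, and an interval that leaves out 1. The membership rule also removes cells high in C1qa, C1qb and C1qc, which limits the microglial sum. The 10 microglial markers summed to 52.6 and 51.1 CPM in members against 53.3 and 47.3 CPM, the 12 neuronal markers to 248 and 239 against 345 and 314, the 10 astrocyte markers to 279.6 and 283 against 312 and 334, and the 8 endothelial markers to 19.9 and 29.2 against 21.3 and 58.1. The 8 pericyte markers summed to 0.428 and 3.39 CPM in members against 1.64 and 24.3, and the 6 fibroblast markers to 1.28 and 0 against 0.557 and 42.5, so the DREADD-CNO OPCs below the cut held more of both than its members. The 5 choroid plexus markers, among them Enpp2, which OPCs also express, summed to 298 and 343 CPM in members against 401 and 421.

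The first comparison asked how large the cycling fraction was in each library. Members were 231 of 2519 OPCs in WT-CNO, or 9.17% (8.07 to 10.4), and 178 of 2194 OPCs in DREADD-CNO, or 8.11% (7.0 to 9.34). DREADD-CNO minus WT-CNO was -1.06 percentage points (-2.66 to 0.56), an interval that includes 0. After thinning to 5000 UMIs the shares were 10.3% and 8.72%, a difference of -1.58 percentage points (-3.32 to 0.18). The direction was the same within the ribosomal-rich state, at 12.1% and 9.61%, and within the ribosomal-poor state, at 7.84% and 6.17%, with intervals that include 0 in each. In ribosomal-rich cells thinned to 5000 UMIs the difference was -3.15 percentage points (-6.27 to -0.20), an interval that leaves out 0. Among female cells the shares were 9.34% and 8.23%. Among male cells the direction turned, with 5.7% in WT-CNO, from 15 members, and 7.74% in DREADD-CNO, a difference of 2.03 percentage points (-1.69 to 4.74). These intervals hold counting error only, and with 1 library per group they cannot say whether the groups differ.

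The difference moved with depth. In OPCs of 20000 UMIs or more, members were 85 of 493 in WT-CNO (17.2%) and 89 of 785 in DREADD-CNO (11.3%), a difference of -5.90 percentage points (-10.02 to -2.0). In OPCs of 10000 to 20000 UMIs they were 7.99% and 5.57%, a difference of -2.42 percentage points (-4.80 to -0.0093). At 5000 to 10000 UMIs the shares were 7.08% and 6.92%. Below 5000 UMIs the direction turned, with 11 of 238 OPCs (4.62%) and 12 of 142 (8.45%), a difference of 3.83 percentage points (-1.13 to 9.91). Members are themselves deeper cells, so a bin of depth is not independent of membership. A second set of 5 mitosis genes (Nusap1, Tpx2, Cdk1, Ccnb1 and Prc1) at the same cut took 160 and 122 OPCs, of which 158 and 121 were members, or 68.4% and 68% of members and 98.8% and 99.2% of the cells so taken. Its shares were 6.35% and 5.56%.

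**Figure D1:**
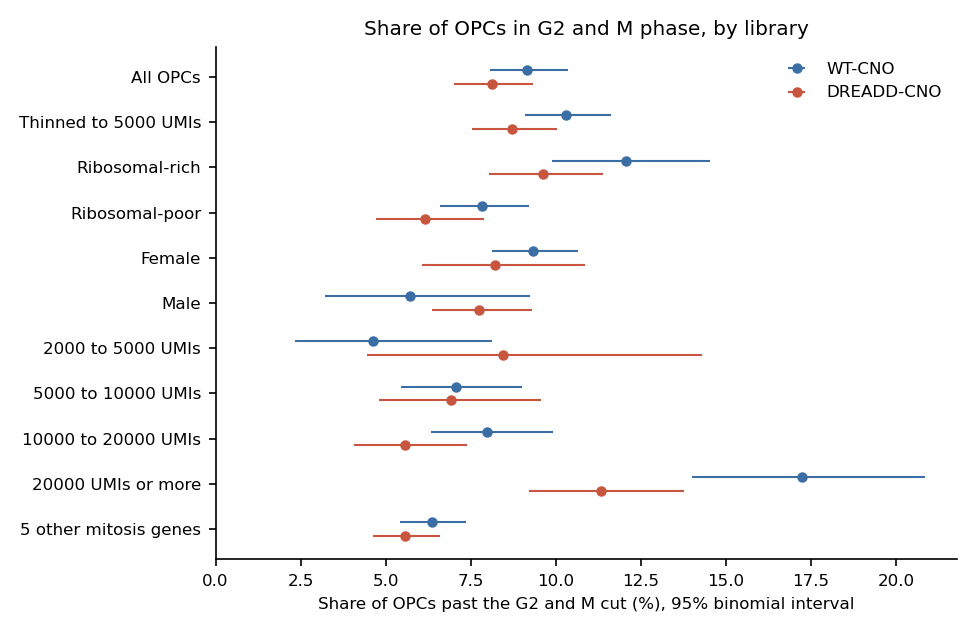
Share of OPCs past the cut (percent, horizontal axis) in all OPCs and in subsets by state, sex and depth, with thinned cells and a second set of genes. Points are the share in each library and bars are 95% binomial intervals; the bars of both libraries overlap over all OPCs and lie apart only slightly in OPCs of 20000 UMIs or more, at 17.2% and 11.3%.

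The second comparison set members beside the OPCs below the cut in the same library. Of 7620 genes measured, 483 (6.34%) were past the rule of size as higher in members of both libraries and 58 (0.761%) as lower. These percentages are from the contrast that chose the members, and nothing is read from them. Of the 483 genes, 482 were above 1 in each of 4 subsets (both states in both libraries) and 388 were at least 2-fold in all 4. Of the 58 lower genes all were below 1 in the 4 subsets, and 12 were at or below 0.5 in all of them. In all, 150 of the 169 measured genes of the 11 mitosis lists and 56 of the 67 measured genes of the 3 replication and repair lists were higher, and 0 were lower. A further 271 of the 483 were in none of the lists used here.

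Mitotic entry genes come first. Cdk1, the kinase that drives entry into mitosis, was at 266 against 7.34 CPM in WT-CNO and 309 against 5.7 CPM in DREADD-CNO. Ccnb1, its cyclin B partner, was at 266 against 2.98 CPM in WT-CNO and 308 against 1.82 CPM in DREADD-CNO, and Ccna2, the cyclin of S phase and G2, at 147 against 2.92 CPM in WT-CNO and 187 against 2.11 CPM in DREADD-CNO. All 20 measured genes of the 21 in this list were higher, with a median log2 ratio of 5.07 in WT-CNO and 5.0 in DREADD-CNO, where the median over all genes was 0.00 and 0.00. Plk1, a kinase of mitotic entry and spindle assembly, was at 98.8 and 112 CPM in members and near 1 CPM below the cut. Foxm1, a transcription factor of G2 genes, was higher 38.4-fold in WT-CNO and 40.6-fold in DREADD-CNO. Cks2, a small CDK-binding subunit, was at 261 against 7.3 CPM in WT-CNO and 344 against 5.31 CPM in DREADD-CNO.

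The rule genes themselves give the size of the selection. Mki67, the chromosome surfactant Ki-67, was at 804 against 8.61 CPM in WT-CNO and 713 against 8.93 CPM in DREADD-CNO. Top2a, the topoisomerase that untangles sister chromatids, was at 1172 against 24.8 CPM in WT-CNO and 990.2 against 21.8 CPM in DREADD-CNO. Cenpf, a kinetochore protein of G2, was at 845 against 10.6 CPM in WT-CNO and 885 against 8.46 CPM in DREADD-CNO. Ube2c, the ubiquitin-conjugating enzyme of the anaphase promoting complex, was at 519.6 against 8.03 CPM in WT-CNO and 629.7 against 4.52 CPM in DREADD-CNO, and Birc5 (survivin), a subunit of the chromosomal passenger complex, at 291 against 5.34 CPM in WT-CNO and 369 against 5.64 CPM in DREADD-CNO. Both libraries had each rule gene higher in members, from a ratio of 45.5 for Top2a to one of 139 for Ube2c, both in DREADD-CNO.

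Passenger and kinetochore genes followed. Aurkb, the kinase of the passenger complex, was at 109.5 against 1.97 CPM in WT-CNO and 102 against 1.03 CPM in DREADD-CNO, and all 6 genes of that list, shugoshins included, were higher. Of 27 measured kinetochore and centromere genes, 27 were higher. Cenpa, the histone variant of centromeres, was at 377 against 6.65 CPM in WT-CNO and 492 against 5.78 CPM in DREADD-CNO, and Knl1, a scaffold of the outer kinetochore, at 357 against 4.88 CPM in WT-CNO and 336 against 3.61 CPM in DREADD-CNO. Of 8 spindle checkpoint genes 7 were higher, among them Bub1 (ratios of 71 and 82.9), a checkpoint kinase. Bub3, which binds it, had ratios of 3.72 and 3.6, and Mad1l1, with ratios of 1.98 and 1.7, did not pass.

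The anaphase promoting complex split. Its activator Cdc20 was at 185 against 3.57 CPM in WT-CNO and 262 against 3.08 CPM in DREADD-CNO, the protease separase (Espl1) at 59.9 against 1.21 CPM in WT-CNO and 43 against 0.793 CPM in DREADD-CNO, and 5 of 13 measured genes were higher. The core subunits were not past the rule: Cdc27 had ratios of 1.83 and 1.94 and Anapc5 had ratios of 1.58 and 1.53. The 5 that passed were the activators Cdc20 and Fzr1, the ubiquitin-conjugating enzymes Ube2c and Ube2s, and separase. In the list of condensin, cohesin and chromatin genes 21 of 22 were higher; the condensin subunit Smc2 had ratios of 12.9 and 14.4, while the cohesin subunit Smc3 had ratios of 1.49 and 1.66 and did not pass. Hmgb2, a chromatin protein of dividing cells, was at 1107 against 50.4 CPM in WT-CNO and 1397 against 55.5 CPM in DREADD-CNO, and its relative Hmgb1 at 1246 against 382 CPM in WT-CNO and 1562 against 504 CPM in DREADD-CNO.

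The highest ratio of the weaker library was that of Pif1, a DNA helicase in none of the lists, with 208 (122 to 383) in WT-CNO and 192 (115 to 347) in DREADD-CNO, from 445 and 325 UMIs in members. All 13 spindle motors were higher: Kif11, which pushes the spindle poles apart, was at 370.5 against 4.55 CPM in WT-CNO and 323 against 3.26 CPM in DREADD-CNO, and Kif14, a motor of the midbody, at 95.2 against 0.852 CPM in WT-CNO and 83.4 against 0.323 CPM in DREADD-CNO. Hmmr, a spindle protein, had ratios of 119 and 168, and Tpx2, which activates Aurora A, had ratios of 56.8 and 64.9. Of 17 measured cytokinesis genes 16 were higher, with Prc1, the bundler of the central spindle, at 527 against 6.75 CPM in WT-CNO and 537 against 5.87 CPM in DREADD-CNO. Rhoa, the GTPase of the contractile ring, had ratios of 1.48 and 1.26 and did not pass. The other genes among the 10 highest were Arhgef39, Troap, Depdc1a, Kif23, Iqgap3, Plk1 and Ccnb1, down to a ratio of 89.2 for Ccnb1 in WT-CNO.

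**Figure D2:**
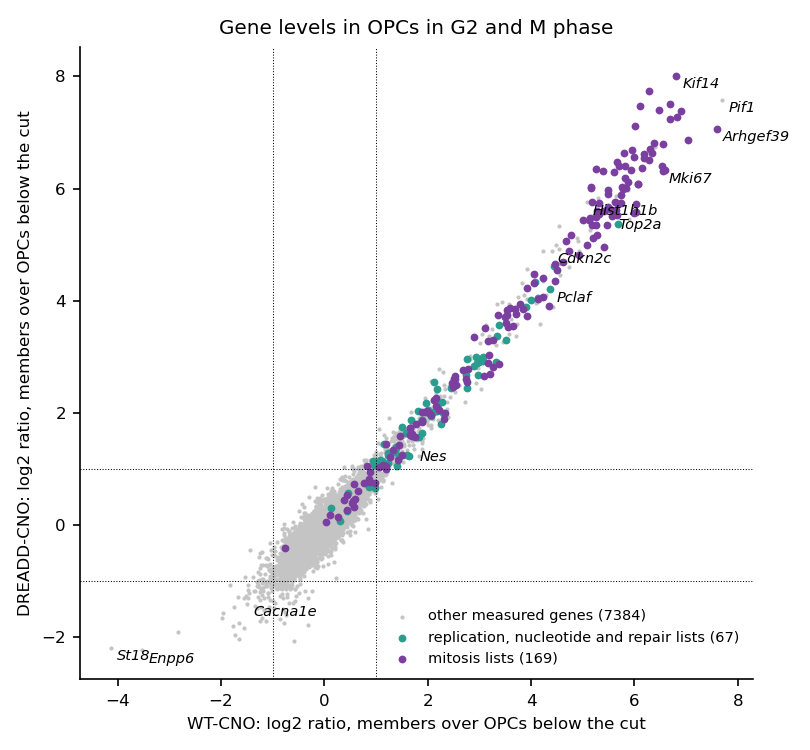
Log2 ratio of members over OPCs below the cut in WT-CNO (horizontal axis) and DREADD-CNO (vertical axis) for 7620 measured genes, each point a gene. Dotted lines mark a ratio of 2 up or down, and mitosis genes lie along the diagonal at the upper right while Enpp6, St18 and Cacna1e lie at the lower left.

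Tubulins and nuclear envelope genes were mixed. Tuba1b, an alpha tubulin, was at 616 against 92.7 CPM in WT-CNO and 679.9 against 112 CPM in DREADD-CNO, and Tuba1c, a further isotype, at 27.8 against 0.426 CPM in WT-CNO and 38 against 0.793 CPM in DREADD-CNO. Tuba1a, abundant in all OPCs, was at 1406 against 1308 CPM in WT-CNO and 1893 against 1669 CPM in DREADD-CNO and did not pass, so 6 of 11 measured tubulins and stathmins were higher. Stmn1, a tubulin-sequestering protein, was at 541 against 52.6 CPM in WT-CNO and 645 against 48.2 CPM in DREADD-CNO. These tubulins share much of their sequence, and reads that fit several of them could be split between them. Lmnb1 (lamin B1) had ratios of 5.74 and 6.33, and 9 of 11 measured nuclear envelope genes were higher.

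Replication mRNAs were also higher in members. Of 36 measured genes of G1 to S and replication 31 were higher, with a median log2 ratio of 1.64 in WT-CNO and 1.73 in DREADD-CNO. Pclaf, a PCNA-binding factor, was at 300.3 against 14.5 CPM in WT-CNO and 303 against 16.4 CPM in DREADD-CNO, and Pcna, the sliding clamp, at 122 against 33.1 CPM in WT-CNO and 137 against 37.4 CPM in DREADD-CNO. The licensing helicase subunit Mcm4 had ratios of 1.83 and 1.61 and did not pass. Rrm2, the ribonucleotide reductase subunit of S phase, was at 132 against 8.19 CPM in WT-CNO and 128 against 7.87 CPM in DREADD-CNO, and 8 of 13 nucleotide supply genes were higher. Among DNA repair genes 17 of 18 were higher, the most by ratio being the glycosylase Neil3 (ratios of 51.3 and 41.6) and the kinase Chek2 (ratios of 21.9 and 24.7). Of 67 histone cluster genes in the files, 16 were measured and 14 were higher. Hist1h1b, a linker histone, was at 418 against 12.4 CPM in WT-CNO and 416 against 7.69 CPM in DREADD-CNO, whereas Hist3h2a had ratios of 0.641 and 0.469.

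Growth arrest and G1 genes were mixed. Of 6 measured p53 targets only Gtse1, a microtubule protein that is also in the spindle list, was higher; Mdm2 had ratios of 1.05 and 0.945 and Bax had ratios of 1.05 and 1.04. Ccnd1 (cyclin D1) was at 169 against 175 CPM in WT-CNO and 172 against 203 CPM in DREADD-CNO and Ccnd2 at 47.3 against 85.1 CPM in WT-CNO and 58.6 against 111 CPM in DREADD-CNO. A pair of inhibitors of CDK4 and CDK6 was higher: Cdkn2c (p18) was at 113 against 5.34 CPM in WT-CNO and 141 against 4.76 CPM in DREADD-CNO and Cdkn2d (p19) at 84.9 against 14 CPM in WT-CNO and 113 against 19.9 CPM in DREADD-CNO. Cdkn1b (p27) had ratios of 1.9 and 1.67 and did not pass. In all 5 of 17 measured genes of the G1 list were higher, the others being Rbl1, E2f5 and Ccng2, and the list had medians of 0.43 in WT-CNO and 0.41 in DREADD-CNO on the log2 scale.

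Some promoters of these genes hold short elements of cell cycle genes. The CCAAT box and the cell cycle genes homology region (CHR) are elements described in promoters of genes used in G2 and M phase, and the stretches of Top2a, Cdk1, Cdc20 and Mki67 are shown because each holds both. Each is the 150 bases before the start of the gene in RefSeq (GRCm38.p6), 5′ to 3′ on the gene's strand, with the matches in capitals. They lie at chr11:99024190-99024339 on the minus strand, chr10:69352913-69353062 on the minus strand, chr4:118437344-118437493 on the minus strand and chr7:135716380-135716529 on the minus strand.
Top2a: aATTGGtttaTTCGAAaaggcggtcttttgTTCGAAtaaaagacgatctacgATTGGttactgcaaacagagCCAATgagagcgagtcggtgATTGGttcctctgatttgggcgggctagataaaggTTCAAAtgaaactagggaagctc
Cdk1: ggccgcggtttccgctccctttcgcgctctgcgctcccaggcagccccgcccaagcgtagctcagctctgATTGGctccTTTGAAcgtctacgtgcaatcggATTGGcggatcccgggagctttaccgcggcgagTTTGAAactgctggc
Cdc20: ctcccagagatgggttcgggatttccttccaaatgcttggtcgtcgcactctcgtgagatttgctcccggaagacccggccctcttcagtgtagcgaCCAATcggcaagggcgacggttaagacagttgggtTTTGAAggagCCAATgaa
Mki67: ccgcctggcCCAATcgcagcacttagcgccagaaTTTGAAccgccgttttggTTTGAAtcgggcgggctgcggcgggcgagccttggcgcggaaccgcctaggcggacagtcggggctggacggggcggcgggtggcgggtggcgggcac
The search took CCAAT and its reverse ATTGG, and TTTGAA and TTCGAA for the CHR with the reverse TTCAAA, on both strands over 250 bases before and 50 after the start; matches that overlap were each counted. Cdk1 holds a CHR that begins 15 bases before its start, Top2a one at 23 bases and Cdc20 one at 18 bases. A CHR was present in 19.4% of the 27025 promoters of the table and in 13.5% of the 6104 that matched a measured gene (80.1% of 7620). It was present in 40.2% of the 403 promoters matched to the 483 higher genes and in 72.7% of the 88 matched to the 105 genes at least 20-fold higher in both libraries. A CCAAT box was present in 37.9%, 39.1%, 64.8% and 75% of the same sets. Both together were in 7.7%, 6.19%, 29.3% and 59.1% of them. The set of higher genes and the set at least 20-fold higher were each chosen on the contrast that chose the members. Ccnb1 held 2 CCAAT boxes and no CHR, and Birc5 neither, which says only that these letters are not in the window.

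Members were not uniform. They were split by 5 replication genes (Mcm3, Mcm5, Mcm6, Pcna and Rrm2) and 5 late mitotic genes (Ccnb1, Cdc20, Plk1, Aurka and Nek2), each at 5 UMIs per 10000, a split chosen after the data were seen. In WT-CNO 42 of 231 members (18.2%) were past the replication level alone, 73 (31.6%) past the late level alone, 8 past both and 108 (46.8%) past neither. In DREADD-CNO these were 39 of 178 (21.9%), 74 (41.6%), 5 and 60 (33.7%). The label G2 and M thus does not describe every member by its mRNAs, since 81 of the 409 were past the replication level alone. Members past neither level were shallow, with a median of 10276 UMIs in WT-CNO and 12925 in DREADD-CNO, against 23524 and 24232 in members past the late level. The ribosomal-rich state held 12% and 30.0% of the former and 68.5% and 90.5% of the latter, so the larger late share in DREADD-CNO goes with its larger rich share, and the part of depth and state in it was not tested. Across members the late and the replication sums had a correlation of -0.20 over 231 WT-CNO cells and -0.24 over 178 DREADD-CNO cells, which share library and depth.

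**Figure D3:**
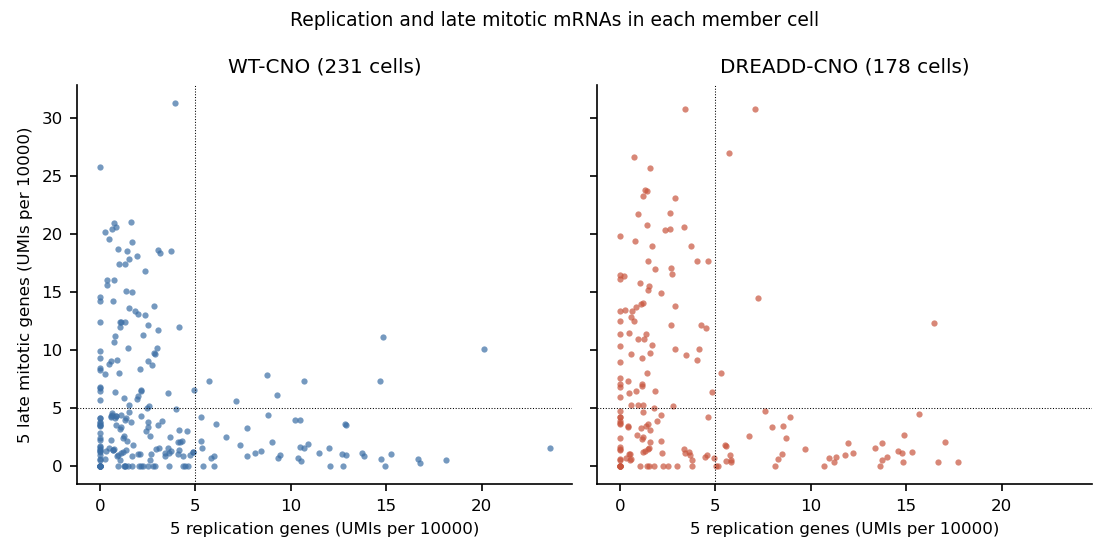
Each point is a member cell, with the summed UMIs per 10000 of 5 replication genes on the horizontal axis and of 5 late mitotic genes on the vertical axis. Dotted lines mark the level of 5; few cells (8 in WT-CNO and 5 in DREADD-CNO) are past both.

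Genes that the split did not use followed it. Cenpa was at 68.6 and 683 CPM in WT-CNO and 82.9 and 782 CPM in DREADD-CNO, in replication and late members in that order. Ube2c was at 145 and 1043 CPM in WT-CNO and 143 and 1061 CPM in DREADD-CNO, and Cenpf at 189 and 1519.6 CPM in WT-CNO and 218 and 1416 CPM in DREADD-CNO. Top2a differed less, at 947 and 1505 CPM in WT-CNO and 817 and 1253 CPM in DREADD-CNO. Cenpa, Ube2c and Cenpf were thus mostly mRNAs of the late members, whereas Top2a was abundant in both. Ube2c, Cenpf and Top2a are rule genes, so membership itself fixes part of their levels. Of these genes only Cenpa was used neither by the membership rule nor by the split. Of 173 mitosis genes at 20 CPM or more in members of both libraries, 64 were over 2-fold higher in late members of both and 6 over 2-fold higher in replication members, the genes of the split included. The split fixes part of this count, and the share over all genes was not computed.

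The replication side held the histones. Hist1h1b was at 982 and 223 CPM in WT-CNO and 1111 and 197 CPM in DREADD-CNO, and the 67 histone cluster genes summed to 3998 and 1547 CPM in WT-CNO and 4633 and 1291 CPM in DREADD-CNO. Pclaf was at 659.6 and 209 CPM in WT-CNO and 626 and 216 CPM in DREADD-CNO, and Ccne2 (cyclin E2) at 71.3 and 4.05 CPM in WT-CNO and 93.6 and 2.04 CPM in DREADD-CNO. Of 73 replication, nucleotide and repair genes, 57 were over 2-fold higher in replication members of both libraries and 0 in late members. This count also includes genes of the split, which fixes part of it, and the share over all genes was not computed. A further 75 WT-CNO and 84 DREADD-CNO OPCs below the cut had the replication genes at 5 per 10000 or more. In these the histone cluster genes summed to only 280.1 and 289.9 CPM, beside 238 and 298 CPM in the other OPCs. Mcm3, one of the split genes, stood in these cells at 175 and 187 CPM, against 162 and 141 CPM in replication members. Top2a was at 160.2 and 181 CPM, against 947 and 817 CPM in replication members. Top2a is a rule gene and the cut parts these groups, so the cut fixes much of this gap and nothing is read from it.

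**Figure D4:**
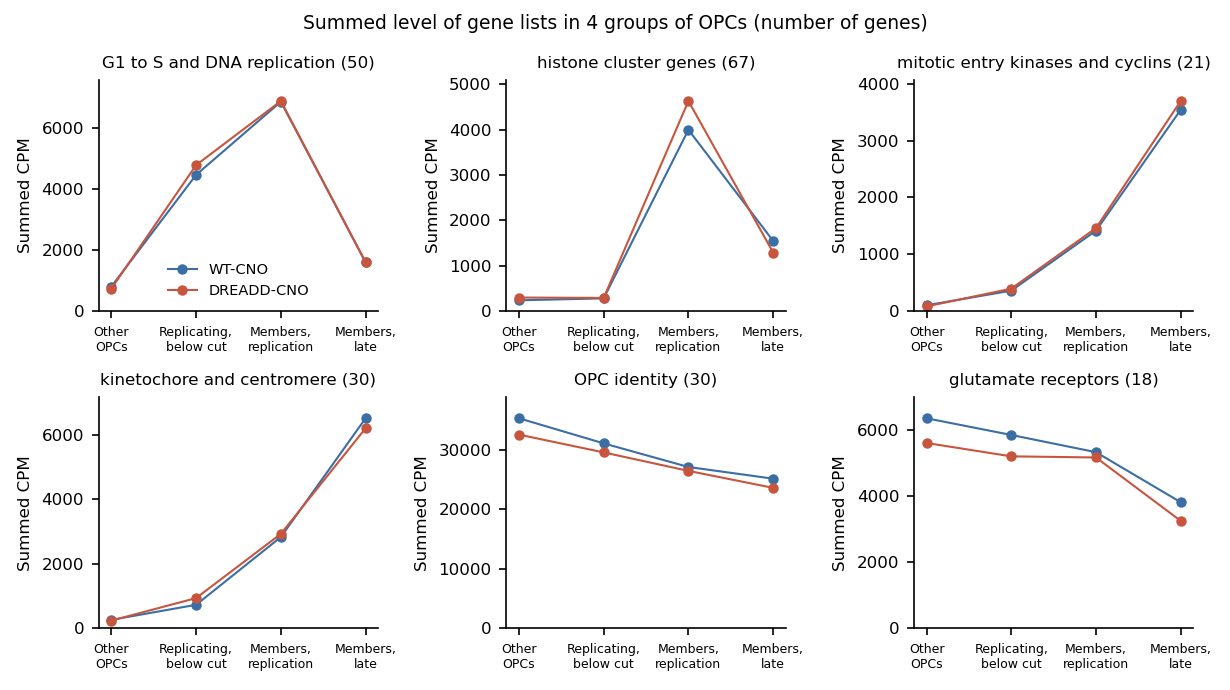
Summed CPM (vertical axes) of 6 gene lists in 4 groups of OPCs, from OPCs outside both classes to late members, in each library. Replication and histone lists peak in replication members, entry and kinetochore lists in late members, and the glutamate receptor list is lowest in late members, at 3824 and 3258 CPM.

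The lowest ratio past the rule, by the weaker library, was that of Enpp6. Enpp6, a marker of newly committed oligodendrocytes, was at 4.71 against 54.1 CPM in WT-CNO and 15.9 against 74.5 CPM in DREADD-CNO, ratios of 0.0870 (0.0543 to 0.132) and 0.213 (0.163 to 0.275). St18, a zinc finger factor, was at 2.57 against 44.8 CPM in WT-CNO and 11.5 against 51.9 CPM in DREADD-CNO. Mbp, myelin basic protein, was at 99.5 against 228 CPM in WT-CNO and 145 against 316 CPM in DREADD-CNO. Single cells weighed on these values. In DREADD-CNO members the top cell held 26 of 61 Enpp6 UMIs and 16 of 44 St18 UMIs, and in WT-CNO members 3 of 22 and 3 of 12. The top cell for Mbp held 103 of 465 UMIs in WT-CNO members and 20 of 557 in DREADD-CNO members. The counting intervals do not hold such spread between cells. Of 13 committed precursor genes at 5 CPM or more, 12 were below 1 in both libraries (92.3%, against 41% of all genes at that level), but of 12 measured only Enpp6 passed the rule. Cnp, a myelin enzyme, had ratios of 0.685 and 0.703 and did not pass. Gpr17, the receptor of committed precursors, was at 441 against 474 CPM in WT-CNO and 409 against 463 CPM in DREADD-CNO. Others among the 10 lowest were Frmd4a, Nkain2, Abca1, Mitf, Elovl7, Nhsl2 and Cacna1e.

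Of 16 glutamate receptor genes at 5 CPM or more, 14 were below 1 in members of both libraries (87.5%, against 41% of all genes at that level). The AMPA receptor subunits, by which OPCs sense neuronal glutamate, were Gria1 at 69.7 against 142 CPM in WT-CNO and 61.2 against 120.4 CPM in DREADD-CNO, Gria2 at 1042 against 1277 CPM in WT-CNO and 1029 against 1215 CPM in DREADD-CNO, Gria3 at 436 against 595 CPM in WT-CNO and 433 against 564 CPM in DREADD-CNO and Gria4 at 697 against 745 CPM in WT-CNO and 563 against 648 CPM in DREADD-CNO. None of the 4 passed the rule; Gria1, with ratios of 0.491 and 0.509, missed it by the second library. Grin1, the common NMDA receptor subunit, was at 40.4 against 87.8 CPM in WT-CNO and 37.3 against 79.2 CPM in DREADD-CNO and Grm7, a metabotropic receptor, at 126 against 282 CPM in WT-CNO and 91.7 against 226 CPM in DREADD-CNO, and both passed, as 2 of 14 measured. Over the list the log2 ratios had medians of -0.30 in WT-CNO and -0.44 in DREADD-CNO, beside 0.00 and 0.00 over all genes. Within the ribosomal-poor state the list's medians were -0.15 and -0.09. Voltage-gated and potassium channel genes had medians of -0.33 in WT-CNO and -0.32 in DREADD-CNO, with 28 of 33 genes at 5 CPM or more below 1 in both libraries and 1 of 32 measured, Cacna1e (a calcium channel at 75.5 against 212 CPM in WT-CNO and 68.8 against 181 CPM in DREADD-CNO), past the rule.

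The lower level was deepest in late members. The 18 glutamate receptor genes summed to 5340.2 and 3824 CPM in WT-CNO and 5179.8 and 3258 CPM in DREADD-CNO in replication and late members, and to 6369 and 5619 CPM in OPCs outside both classes. The 36 channel genes summed to 8563 and 6054 CPM in WT-CNO and 8417 and 5321 CPM in DREADD-CNO. The 20 growth factor receptor genes fell alike, from 5695 to 4307 CPM in WT-CNO and from 5575 to 4084 CPM in DREADD-CNO. Gria4 was at 713 and 529 CPM in WT-CNO and 715 and 402 CPM in DREADD-CNO. Pdgfra was at 991 and 1246 CPM in WT-CNO and 1107 and 1274 CPM in DREADD-CNO. The membership rule requires a level of Pdgfra in every cell, which fixes part of these values, so they are not set against the lists. The 30 OPC identity genes summed to 27083 and 25122 CPM in WT-CNO and 26428 and 23578 CPM in DREADD-CNO. Ribosomal-rich cells were 59.5% and 74.4% of replication members and 68.5% and 90.5% of late members in the 2 libraries. They were 29.6% and 54.2% of OPCs outside both classes, and the part of state in these levels was not tested.

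Progenitor genes passed the rule at a share near that of all genes. Nes (nestin), an intermediate filament of neural progenitors, was at 40.9 against 12.3 CPM in WT-CNO and 30.2 against 11.8 CPM in DREADD-CNO. It was the only 1 of 13 measured genes of the Notch and progenitor list past the rule. Over all 7620 measured genes 6.34% were past it as higher and 0.761% as lower, so nothing is read from this count. Sox11, a transcription factor of neural progenitors, was at 205 against 95.5 CPM in WT-CNO and 185 against 104 CPM in DREADD-CNO and did not pass in both libraries.

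The third comparison set DREADD-CNO members beside WT-CNO members, under a rule of a ratio of at least 1.5 with the same minimums. Of 7396 genes measured 119 (1.61%) were higher and 88 (1.19%) lower in DREADD-CNO, against 77 (0.998%) and 19 (0.246%) of 7719 genes in the larger sums of OPCs below the cut. With TMM scaling the counts in members turned to 88 higher and 125 lower, and with median-of-ratios scaling to 88 and 124, so which direction holds more genes depends on the scaling. Of the 119 higher genes 24 had the same call below the cut and 17 were past 1.5 within both states, and of the 88 lower genes these were 9 and 13. Among female cells alone 98 of the 119 and 57 of the 88 were past 1.5, and among male cells alone 63 and 42.

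No gene of the mitosis or replication lists passed this rule. Of 174 measured mitosis genes 0 were higher or lower in DREADD-CNO members, with ratios from 0.718 for Espl1 to 1.47 for Tubb4b and a median log2 ratio of 0.03. Of 75 measured replication, nucleotide and repair genes 0 passed, with ratios from 0.691 for Xrcc2 to 1.4 for Gins4. With 1 library per group this gives sizes and not a test of equality. Members of both libraries passed the same cut on mitosis mRNAs, which fixes part of the likeness in mitosis genes. Ccnb1 had 1.16 (1.07 to 1.26), Cdc20 1.42, Mki67 0.886 (0.843 to 0.931) and Top2a 0.845. Gria1 to Gria4 had ratios of 0.878, 0.988, 0.995 and 0.809, and 0 of 13 measured glutamate receptor genes passed.

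Of 7 measured immediate early genes 3 were higher in DREADD-CNO members. Egr1, an activity-induced zinc finger factor, was at 69.1 CPM in WT-CNO and 172 CPM in DREADD-CNO members, a ratio of 2.48 (2.17 to 2.85), and in 36.4% and 57.9% of members. Fos, its AP-1 counterpart, was at 14.1 CPM in WT-CNO and 31.5 CPM in DREADD-CNO members, a ratio of 2.23 (1.64 to 3.06). Both showed the same call below the cut, with ratios of 2.31 and 2.82. Ier5 was the third of 7 measured genes past the rule, at 1.51 (0.839 among male cells alone), while Jun had 1.17 and Nr4a1 1.08. All 9 genes of the list at 5 CPM or more were above 1, as were 6120 of the 11161 genes at that level.

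Of 15 measured Notch and progenitor genes 3 were higher in DREADD-CNO members. Hes5, a Notch effector, was at 174 CPM in WT-CNO and 272 CPM in DREADD-CNO members (1.56), against 185 and 193 CPM below the cut. Within the ribosomal-poor state the Hes5 ratio was 0.935 and among female cells 1.06, against 1.64 in the rich state and 2.64 among male cells. Hey1, a further Notch effector, had 1.74, and 0.898 within the poor state, so its direction turned there as that of Hes5 did. Id3, an inhibitor of basic helix-loop-helix factors, had 1.95 in members and 1.71 below the cut. Tcf7l2, a Wnt effector of the committed precursor list, was lower, with 0.615 in members and 0.829 below the cut. Whether members and the OPCs below the cut differ in these ratios was not tested.

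The highest ratios, of Ttr and Ptgds, rested on few UMIs or few cells. Ttr (transthyretin), a transcript of the choroid plexus, had 1 UMI in WT-CNO members and 102 in DREADD-CNO members, a ratio of 124 (21.8 to 4954), and stood at 0.459 and 30.9 CPM below the cut, so both groups of cells showed it. A Ttr UMI was found in 73 of 178 DREADD-CNO members, at most 8 in a cell. After thinning to 5000 UMIs the share of DREADD-CNO cells with a Ttr UMI was 13.9% in members, 15% below the cut and 12.3% in myelin-rich cells, which should lack it. The interval of the members, 8.99% to 20.1%, includes the myelin-rich share, and that of the OPCs below the cut, 13.4% to 16.7%, leaves it out. Whether these UMIs come from free RNA was not tested, and they are not read as expression. Unthinned, the shares of these cells were 42.8%, 37.6% and 57.4%. Ptgds had 12 and 207 UMIs, of which 180 came from 1 cell; without that cell, and the highest WT-CNO cell, its ratio was 3.27 from 10 and 27 UMIs. Pnlip, a lipase, was at 33.2 CPM in WT-CNO and 72.4 CPM in DREADD-CNO members (2.18), and Klf9, a factor induced by thyroid and glucocorticoid hormones, at 21.2 CPM in WT-CNO and 42.2 CPM in DREADD-CNO members (1.99). Zfhx4, Aldh7a1 and Mycl had 2.12, 1.93 and 1.89. Cnp was at 102 CPM in WT-CNO and 154 CPM in DREADD-CNO members and passed in members, with 1.48 below the cut.

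Among lower genes Tmem117, a membrane protein, had 127 UMIs in WT-CNO and 10 in DREADD-CNO members, a ratio of 0.0959 (0.0449 to 0.182), and 0.389 below the cut. Tenm2 (teneurin 2), a synaptic adhesion protein, was at 258 CPM in WT-CNO and 129 CPM in DREADD-CNO members, a ratio of 0.501 (0.451 to 0.557), and 0.579 below the cut. Hmga2, a chromatin factor of fetal progenitors, was at 28.2 CPM in WT-CNO and 13.3 CPM in DREADD-CNO members (0.471) and had 0.466 below the cut; without the highest cell of each library the ratio in members was 0.377. Lgr5, a Wnt pathway receptor, was at 59.7 CPM in WT-CNO and 28.4 CPM in DREADD-CNO members. Ptchd4, Galntl6, Pced1b, Syn3 and Arhgap6 had ratios of 0.428, 0.461, 0.461, 0.527 and 0.530. Neurod6, the gene that carries Cre, had 0 UMIs in members of both libraries, which allows up to 0.642 and 0.782 CPM and gives no check of the genotype.

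**Figure D5:**
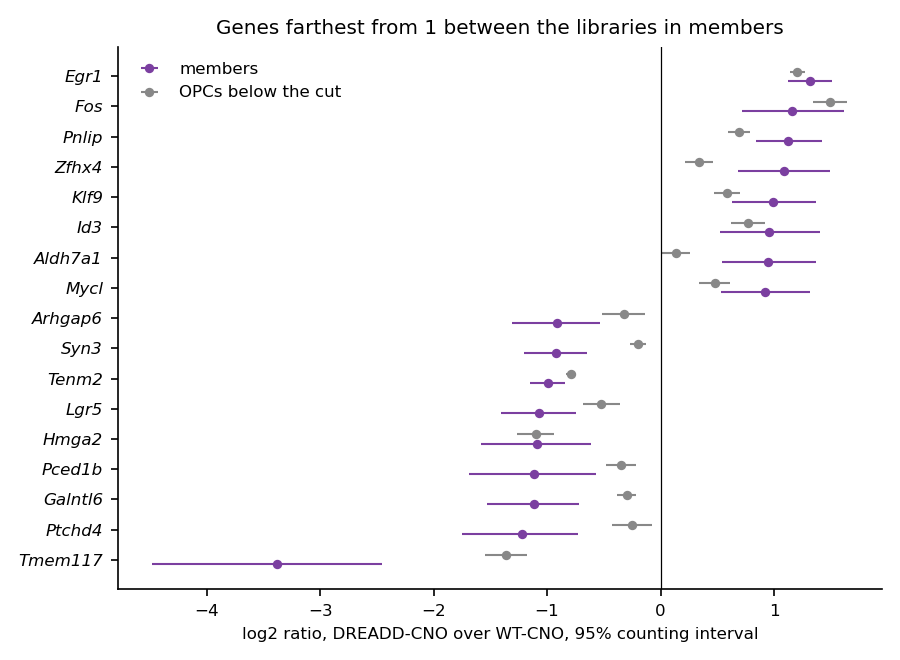
Log2 ratio of DREADD-CNO over WT-CNO (horizontal axis) for the genes farthest from 1 in members, in members and in OPCs below the cut, with 95% counting intervals. Ttr and Ptgds are left out for scale, and not every gene of the rule is shown; Egr1, Fos, Hmga2 and Tenm2 lie at like values in both groups of cells, and every gene shown lies on the same side of 0 in both.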

How the data were processed

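Single-cell 3' libraries of 1 WT-CNO and 1 DREADD-CNO pool were analysed. The deposited values were UMI counts for each gene and barcode, not normalised; per the submitters' processing notes the authors ran Cell Ranger 7.1.0; the genome build is not given in the sources used here. Library totals were 78794300 and 108912581 UMIs in 6252 and 6754 barcodes, of which 3995 and 4566 passed the filters. UMIs of members and of OPCs below the cut (4675062 and 3838547 UMIs in members) were summed per library and scaled to CPM, without models or tests, since there was 1 library per group. Intervals were exact Poisson, Clopper-Pearson, Newcombe or, for ratios, exact binomial. The members, gene lists, splits and rules were chosen with earlier results of these data known. Named genes were the rule genes, Pdgfra, Gria1 to Gria4, Neurod6, the 10 highest and 10 lowest in each comparison leaving out sex-linked and erythroid genes and those named Gm or Rik, and the 2 most abundant and 2 with the largest ratios of each list; not all are given, some are not reported here, and other list genes were added after their values were seen.

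Processing used Python 3.11.15, scanpy 1.11.5 (Scrublet) and edgeR 4.0.16 in R 4.3.3 for TMM factors only. Scrublet's automatic threshold called 1 and 74 barcodes, so the highest scores at the expected rate were left out in an alternative. The rule of size was tried on simulated counts without variation between pups or between cells. It found 200 of 200 genes changed 3-fold between members and the OPCs below the cut and called 0 of 7083 unchanged genes. Between libraries it found 200 of 200 genes changed 2-fold and called 9 of 7206 unchanged. The changed genes were drawn from those with many expected UMIs, so this recovery was nearly fixed and does not extend to sparser genes. Of 32285 gene identifiers 32158 matched GENCODE M21. Promoters came from the RefSeq table of GRCm38.p6, matched by symbol and synonym. The lower genes matched in under 80% of cases and were left out of the promoter shares. Alternatives covered scaling, minimums, depth, the cut, doublets, ribosomal state and sex.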

Additional observations from a re-analysis of the deposited data

How the results depend on the processing

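The lower share in DREADD-CNO kept its direction under 11 of 12 alternatives and its interval included 0 under all 12; in male cells only the difference was 2.03 points. The 4 counts of genes (483 and 58 between members and OPCs below the cut, 119 and 88 between libraries) stayed within 1.5 times under TMM, median-of-ratios, totals without mitochondrial, ribosomal and myelin genes, a cut of 12 and the removal of doublets. A minimum of 50 CPM left 303, 29, 51 and 28, and no minimum beyond 1 UMI gave 1735, 243, 441 and 341. The mean of per-cell CPM, which weights shallow cells equally and has no interval, gave 502 higher and 196 lower genes between libraries. Thinning to 5000 UMIs left 123 higher genes in members, as fewer genes reach 100 UMIs; between libraries it gave 119 and 62, of which only 8 and 11 were among the genes named by the full counts. Ribosomal-rich cells only gave 63 and 39 between libraries. Ribosomal-poor cells only gave 117 and 36 in members and 10 higher between libraries. Female cells only gave 181 higher in members and 78 and 258 between libraries. Male cells only, with 15 WT-CNO members, gave 37 higher in members and 301 and 22 between libraries. The cause of these moves was not tested beyond the smaller sums. In male cells the log2 ratio turned for St18 (0.64) and Nhsl2 (0.34) between members and the rest in WT-CNO, and for Pnlip (-0.37) and Syn3 (0.19) between libraries. No paired analysis was possible because each group is 1 library and the labels carry no replicate numbers. Leaving out the highest cell, an alternative added after the data were seen, changed Ptgds as given above.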

Other observations

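Energy and protein synthesis genes gave small differences between members and the OPCs below the cut. Of 81 measured ribosomal protein genes 0 passed the rule, with medians of 0.37 in WT-CNO and 0.07 in DREADD-CNO on the log2 scale, and within the ribosomal-rich state of 0.13 and -0.05. Of 13 mitochondrially encoded mRNAs 0 passed the rule, and all 13 were below 1 in both libraries, with medians of -0.16 in WT-CNO and -0.20 in DREADD-CNO. Nuclear genes of the respiratory chain had medians of 0.30 in WT-CNO and 0.17 in DREADD-CNO. Hsp90aa1, a chaperone, was at 612 against 335 CPM in WT-CNO and 645 against 355 CPM in DREADD-CNO, the highest ratio of its list among genes over 100 CPM, and did not pass. Gapdh, a glycolytic enzyme, was at 431 against 252 CPM in WT-CNO and 481 against 359 CPM in DREADD-CNO. Its list did not follow, with median log2 ratios of -0.02 in WT-CNO and -0.19 in DREADD-CNO and 0 of 12 measured genes past the rule. Of 14 glycolysis genes at 5 CPM or more, 6 were above 1 and 7 below 1 in both libraries (50%, against 41% of all genes).

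Cholesterol synthesis genes, which OPCs need for membrane, were slightly higher in members than in the rest, with median log2 ratios of 0.15 in WT-CNO and 0.15 in DREADD-CNO. Of 23 genes at 5 CPM or more, 15 were above 1 and 3 below 1 in both libraries. Over all 11161 genes at that level these were 4657 and 4579. Between libraries 22 of 23 were above 1 in members, against 6120 of 11161 of all genes at 5 CPM or more. The median log2 ratio was 0.24 in members and 0.27 below the cut, beside 0.03 and 0.01 over all genes. Of 21 measured genes 0 passed the rule.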
